A study of Rattus norvegicus and Mus musculus with 24 samples.

Results

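The genes described here belong to the peroxisome, the single-membrane organelle that shortens very long and branched fatty acids, makes the first steps of ether lipids and breaks down hydrogen peroxide. They were taken from a fixed list of 42 symbols, which covers oxidation enzymes, transporters and acyl carriers, ether lipid enzymes, catalase and other redox enzymes, membrane channels and the peroxins (PEX genes) that build the organelle. A row counted as a member when its symbol equalled a listed one, and the rule itself uses no measured value. Of the 42, 41 were among the 17376 symbols of the mouse table and 40 among the 14931 of the rat table, and 39 were in both. MPV17 was not analysed here in the mouse, nor PEX13 and PECR in the rat. All 41 entered the mouse test, and all 40 passed the filter on low reads in the rat.

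The libraries came from kidneys of animals with and without Ctns, the gene for cystinosin, which carries cystine out of the lysosome and is mutated in the storage disease cystinosis. There were 4 Ctns KO and 4 Ctns WT mice (C57BL/6 background) and 8 Ctns KO and 8 Ctns WT rats (Sprague-Dawley background), with littermates as controls and 1 library per animal. Rats carry sample numbers 17 to 32, and 4 animals of each genotype fall in 17 to 24 and 4 in 25 to 32. What the 2 number ranges stand for is not given in the sources used here. The study's reporting form gives the mice of every experiment as female and of several ages, and which age was sequenced, like the age, sex and any pellet treatment of these rats, is not stated for the libraries. The methods name kidney cortex as the source of RNA, while the labels also call the cells proximal tubule cells and describe dissected tubules.

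Peroxisomes are dense in the proximal tubule, the part of the nephron that reabsorbs most of the filtrate and burns fatty acids for energy. Very long acyl chains enter through transporters such as ABCD3, are oxidised by acyl-CoA oxidases that give off hydrogen peroxide, pass through bifunctional proteins and thiolases, and leave as carnitine esters, while catalase removes the peroxide. Enzymes reach the matrix bound to the receptors PEX5 and PEX7, which a docking complex and ubiquitin ligases such as PEX10 recycle, and in liver the nuclear receptor PPARA with its partner RXRA switches many of these genes on.

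Between 19309371 and 44449845 reads per mouse and between 24684097 and 40629873 per rat fell on genes. Mouse levels are scaled values, meaning reads on the gene divided by the library's 75th percentile gene, and rat levels are CPM, the reads on a gene as a share of the library's reads, with library sizes scaled by TMM, a factor that evens out composition. CTNS itself ranged from 0.319 to 0.342 in the 4 Ctns KO mice and from 0.824 to 1.02 in the 4 Ctns WT mice (scaled values, log2 fold change -0.52 ± 0.031 SE, limma adjusted p = 0.000898). In rats the groups overlapped, with 16.8 to 22.2 CPM in 8 Ctns KO and 19.2 to 27.8 CPM in 8 Ctns WT animals (log2 fold change -0.22 ± 0.082 SE, edgeR adjusted p = 0.0511), and 4 of 8 alternatives and 5 of 16 fits without 1 rat called it lower. It was called lower in rats 25 to 32 (log2 fold change -0.32 ± 0.11 SE, edgeR adjusted p = 0.0391), though not with plain library totals or in 6 of 8 fits without 1 rat, and not in rats 17 to 24 (log2 fold change -0.11 ± 0.083 SE, edgeR adjusted p = 0.514). With overlap in both ranges, CTNS does not check the label of a single rat. Markers of proximal tubule segments 1 and 2 had reads in every library, and so did markers of thick limb, distal tubule and collecting duct, which summed to 176 to 208 beside 370.5 to 557 for segments 1 and 2 in Ctns WT mice (scaled values, 12 and 14 symbols). Of 5 Y-linked symbols looked for, 4 were in the mouse table, at 0 reads in all 8 mice, and they were not analysed here in the rat.

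The upstream ends of 3 rat genes are shown because CAT and AMACR fell in both species, LONP2 fell in rats, and all 3 hold the motif searched. HSD17B4, which also fell in rats, holds it as well, 56 bases before its start site, and its sequence is not shown here. RefSeq promoter windows of GRCr8, 250 bases before to 50 after each start site, matched 38 of the 42 symbols. They were searched for AGGTCA and its other strand TGACCT, the core motif bound by PPARA, RXRA and many other nuclear receptors. It occurred in 7 of the 38 windows (18.4%) and in 16.2% of all 33469 windows. The other members with it were AGPS, MPV17 and PEX11G, which were not called in rats. The full direct repeat of AGGTCA with 1 base between, in exact letters and on either strand, which holds the core motif within it, was in 0 of the 38 and in 0.0538% of all windows. Only the 250 bases before the start site are printed, 5′ to 3′ on the gene's strand, with the core motif in capitals. It begins 169 bases before the start site of CAT, 201 before that of AMACR and 210 before that of LONP2.
CAT, rat, GRCr8 chr3:110329527-110329776, reverse strand: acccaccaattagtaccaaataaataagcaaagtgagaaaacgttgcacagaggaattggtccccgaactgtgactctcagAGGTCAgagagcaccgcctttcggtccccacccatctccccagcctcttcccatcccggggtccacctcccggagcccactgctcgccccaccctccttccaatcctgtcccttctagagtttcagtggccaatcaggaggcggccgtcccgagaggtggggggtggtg
AMACR, rat, GRCr8 chr2:61673085-61673334, forward strand: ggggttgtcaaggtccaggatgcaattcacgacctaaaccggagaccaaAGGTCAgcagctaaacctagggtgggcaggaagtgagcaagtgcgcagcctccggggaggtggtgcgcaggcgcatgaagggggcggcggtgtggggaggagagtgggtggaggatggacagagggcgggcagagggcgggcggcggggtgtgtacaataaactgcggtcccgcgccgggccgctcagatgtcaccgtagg
LONP2, rat, GRCr8 chr19:36672243-36672492, reverse strand: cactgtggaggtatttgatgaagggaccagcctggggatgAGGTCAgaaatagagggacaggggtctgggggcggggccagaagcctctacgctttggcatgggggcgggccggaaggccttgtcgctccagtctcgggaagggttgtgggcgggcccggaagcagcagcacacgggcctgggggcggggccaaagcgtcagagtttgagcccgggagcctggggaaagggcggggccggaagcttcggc
The share of windows with the core motif among members was close to that among all promoters, and the match is a description of letters only.

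In Ctns KO mice, 6 of the 41 members fell and 0 rose, beside 0.817% of all 17376 symbols lower and 3.5% higher (limma, adjusted p under 0.05). The 6 were CAT, which splits hydrogen peroxide, the NADPH-making isocitrate dehydrogenase IDH1, the soluble epoxide hydrolase EPHX2, and 3 enzymes of branched-chain oxidation, SCP2, PHYH and AMACR. At an unadjusted p under 0.05, 12 members were lower and 0 higher, and every other tool run gave 0 higher. The median log2 fold change of the members was -0.095 and 39 of 41 lay below 0. Over all symbols the median was 0, with 42.3% of them below 0. All 17376 symbols were tested, so this background holds symbols at or near 0 reads, while every member had at least 178 reads per mouse. Shares and a median for symbols with reads like those of the members are not given here. The count rests on single animals: without Ctns KO mouse 5, Ctns KO mouse 6 or Ctns WT mouse 4 only IDH1 passed, and without Ctns KO mouse 3 there were 3 calls. It was 3 with 1 surrogate variable (IDH1, PHYH and SCP2) and 10 with DESeq2, all lower, which added ACAA1, ACOX2, PECR and PEX5.

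**Figure D1:**
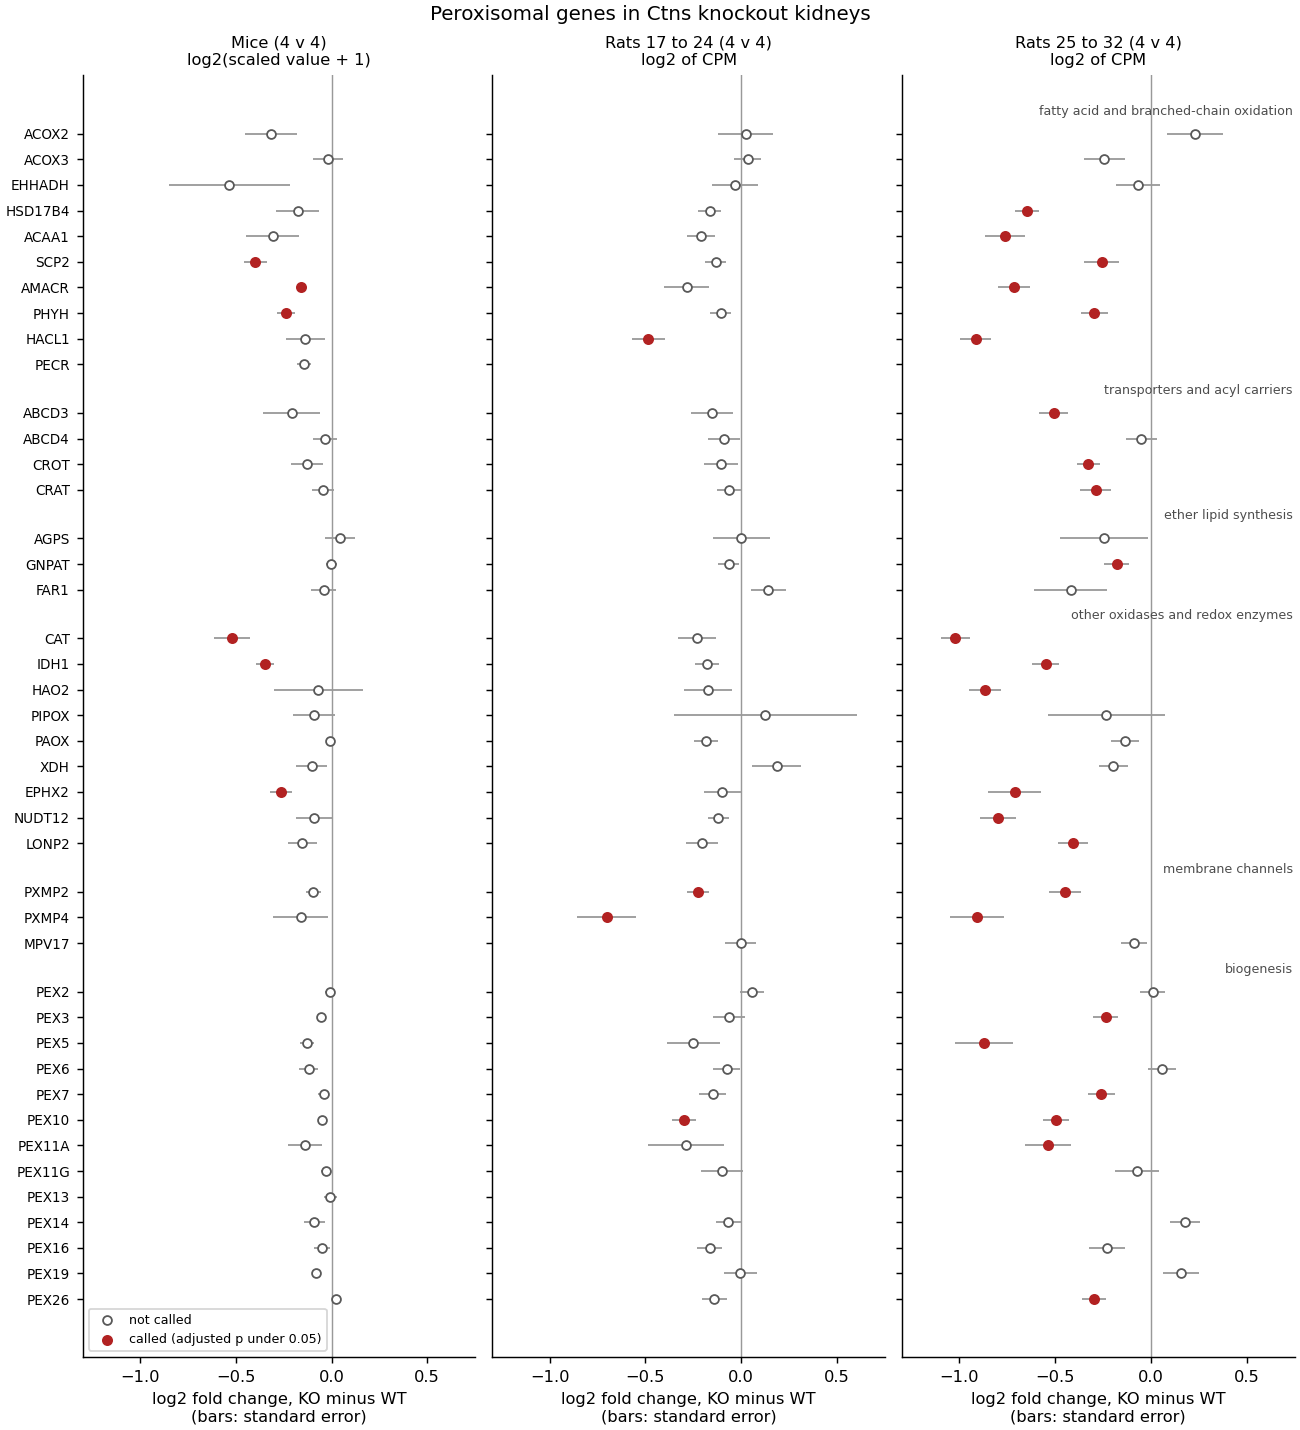
Log2 fold change (Ctns KO minus Ctns WT, x axis) with standard error for every member (y axis, grouped by role) in mice, in rats 17 to 24 and in rats 25 to 32, with filled points for adjusted p under 0.05. The 6 filled points in mice, 4 in rats 17 to 24 and 24 in rats 25 to 32 all lie left of 0, and an empty row marks a symbol missing from a species.

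Animals are listed by number in what follows, Ctns KO mice 3, 5, 6 and 8 and Ctns WT mice 1, 2, 4 and 7. CAT, catalase, stood at 18.4, 17.1, 17.7 and 20 in Ctns KO and 30.2, 27.2, 27.4 and 22.4 in Ctns WT mice (scaled values). All Ctns KO mice lay below all Ctns WT mice, and the mean fell by 31.7%, from 26.8 ± 3.25 to 18.3 ± 1.27 (SD, n = 4 each). On log2(value + 1), where the change of low genes is understated, it differed by -0.52 (standard error 0.095, adjusted p = 0.0301, limma with Benjamini-Hochberg adjustment). That p ranged from 0.0226 to 0.0895 with each mouse left out and passed 0.05 only without Ctns KO mouse 8 or Ctns WT mouse 7. IDH1, which makes NADPH in cytosol and peroxisome, was 13.9, 13.9, 14.1 and 14 in Ctns KO and 17.1, 17.8, 19.8 and 17.9 in Ctns WT mice. The groups did not overlap (log2 fold change -0.35 ± 0.047 SE, limma adjusted p = 0.0112), and IDH1 was the one member called with any mouse left out (adjusted p at most 0.0453, limma). EPHX2, which opens fatty acid epoxides, gave 4.84, 4.58, 4.50 and 4.56 against 6.05, 5.93, 6.05 and 5.03, also without overlap (log2 fold change -0.26 ± 0.056 SE, limma adjusted p = 0.0486). Its call lay at the edge and was kept only when Ctns WT mouse 7, the lowest of its group, was left out.

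SCP2, the sterol carrier and thiolase of branched chains, was 11.7, 10.3, 10.2 and 11.6 in Ctns KO and 15.8, 13.9, 14.7 and 14.5 in Ctns WT mice (log2 fold change -0.40 ± 0.061 SE, limma adjusted p = 0.0177). PHYH, the hydroxylase that starts the breakdown of phytanic acid, was 8.77, 8.49, 8.35 and 8.47 against 9.54, 10.8, 9.83 and 10.8 (log2 fold change -0.24 ± 0.046 SE, limma adjusted p = 0.0358). AMACR, the racemase that lets branched acyl chains enter oxidation, was 2.06, 2.10, 2.10 and 2.21 against 2.45, 2.57, 2.50 and 2.40 (log2 fold change -0.16 ± 0.024 SE, limma adjusted p = 0.0156). None of the 3 overlapped between genotypes, and their means fell by 25.6%, 16.8% and 14.5%. The uncalled members PECR, PXMP2, PEX3, PEX5 and PEX19 did not overlap either. What share of all mouse symbols lay apart in this way was not computed. SCP2 and AMACR lost the call without Ctns KO mouse 5, Ctns KO mouse 6 or Ctns WT mouse 4, and PHYH kept it only without Ctns WT mouse 1. By role, 3 of 10 oxidation enzymes and 3 of 9 redox enzymes were called in mice. The 4 transporters and carriers, the 3 ether lipid enzymes, the 2 membrane channels and the 13 peroxins gave no call in limma, with 0, 0, 1 and 4 at an unadjusted p under 0.05, and their log2 fold changes ran from -0.21 (ABCD3) to 0.046 (AGPS). Peroxin levels were low, with Ctns WT means from 0.3446 (PEX11G) to 2.865 (PEX19), and log2(value + 1) understates the change of low genes. Roles were not tested against each other. EHHADH, the bifunctional enzyme of straight chains, had the lowest log2 fold change of all members, -0.53. Its standard error was 0.32 and its adjusted p 0.451 (limma), and its groups overlapped.

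**Figure D2:**
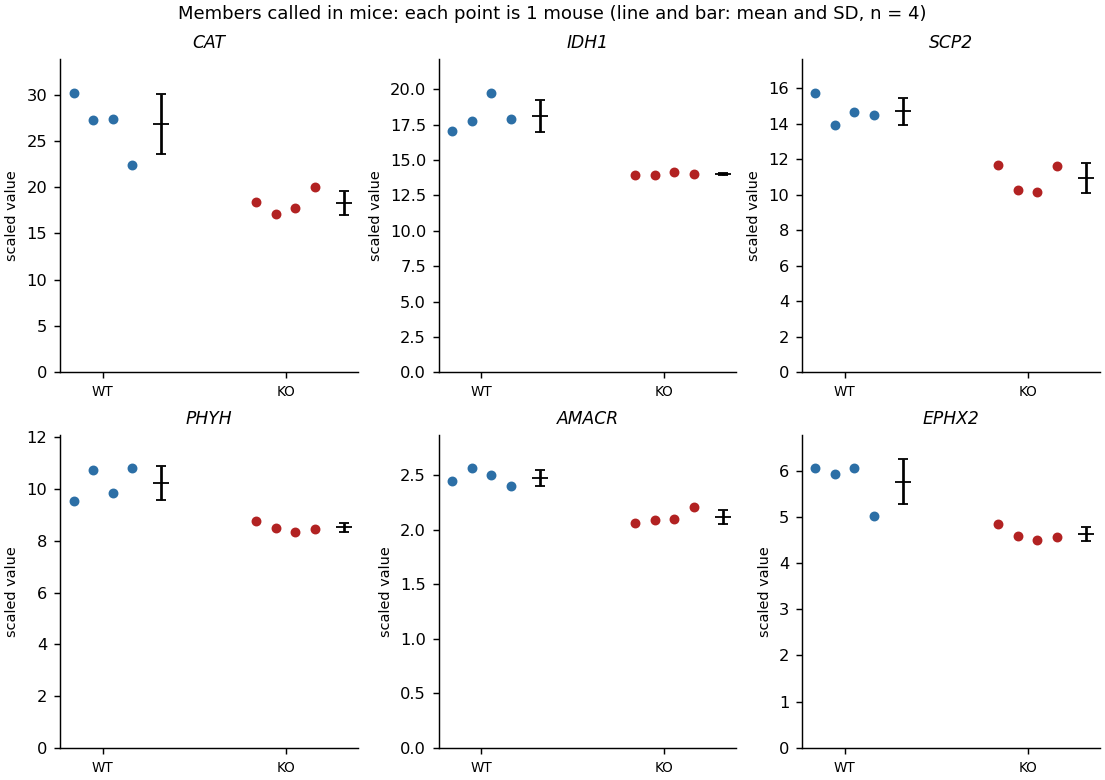
Scaled values (y axis, from 0) of the 6 called members in each of 4 Ctns WT (blue) and 4 Ctns KO (red) mice, with mean and SD. For each gene all red points lie below all blue ones, with catalase at 17.1 to 20 against 22.4 to 30.2.

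Other cell types moved with genotype in the same mice. Summed levels of 10 macrophage markers were 4.46 to 5.48 in Ctns KO and 2.95 to 3.14 in Ctns WT mice, and 5 of 10 were called higher. Tubular injury markers summed to 80.7 to 106 against 40.3 to 60.2, with 5 of 9 called higher. Segment 3 markers were lower, 108 to 132 against 137 to 154 with 1 of 9 called, while the sums for segments 1 and 2 overlapped, 384 to 413 against 370.5 to 557. Of these segment 1 and 2 markers, however, 13 of 14 had a change below 0, with a median of -0.18 beside -0.095 for the members, and none was called in limma (1 lower at an unadjusted p under 0.05). Both medians are on log2(value + 1), which understates the change of low genes, so their sizes cannot be compared directly. The part of these marker lists in the fall of the members was not tested. In whole tissue, fewer cells of a type and less RNA per cell cannot be told apart.

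Over all 16 rats, 23 of the 40 members fell and 0 rose in Ctns KO kidneys, beside 12.3% of symbols lower and 15.2% higher (edgeR's quasi-likelihood test, adjusted p under 0.05). At an unadjusted p under 0.05, 25 were lower and 0 higher. DESeq2 and limma-voom also gave 0 higher. All 6 members called in mice were among the 23, which is 6 of 6 of the mouse calls and 6 of 23 of the rat calls. What share of all symbols called in mice was also called in rats was not computed. SCP2 and PHYH lost the rat call with plain library totals (adjusted p = 0.121 and 0.0512, edgeR), and SCP2 also without Ctns KO rat 18, 20, 26 or 30 or Ctns WT rat 25, 29 or 31. The 2 number ranges gave different counts. In numbers 25 to 32, 24 members fell, beside 22.1% of symbols lower and 21.8% higher. In numbers 17 to 24, 4 fell, beside 2.19% lower and 5.07% higher. No member rose in either range in edgeR, where 1 in numbers 25 to 32 and 0 in numbers 17 to 24 were higher at an unadjusted p under 0.05. DESeq2 and limma-voom also called 0 higher in both, and the fit of all 4 groups called 1, PEX14, higher in numbers 25 to 32. The members' median log2 fold change was -0.29 in numbers 25 to 32 and -0.11 in numbers 17 to 24, beside -0.011 and -0.002 over all symbols.

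These counts depend on how libraries were scaled. With plain library totals in place of TMM, tried after the data were seen, the median change of all symbols in numbers 25 to 32 moved from -0.011 to 0.15, with 9.76% of symbols lower and 36.5% higher. On that scale 16 members were lower and 3 (PEX6, PEX14 and PEX19) higher in numbers 25 to 32, and the members' median was -0.13. Over all 16 rats 16 were lower and 0 higher, beside 5.93% and 22.8% of symbols. The calls lost in numbers 25 to 32 were SCP2, PHYH, CROT, CRAT, GNPAT, PEX3, PEX7 and PEX26, each of which had a change between -0.33 and -0.18 with TMM. In numbers 17 to 24 the calls changed with single rats, since only HACL1 and PEX10 passed without Ctns KO rat 18, 22 or 24 or without Ctns WT rat 19 or 21.

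Marker sums moved in the rats too. Segments 1 and 2 summed to 10600 to 12630 CPM in Ctns KO and 18760 to 20760 CPM in Ctns WT rats 25 to 32, and 11 of 12 markers fell. The same sums in rats 17 to 24 were 12500 to 13410 and 14730 to 16880 CPM, with 1 of 12 called. The summed members stood at 9756 to 11360 against 16810 to 18310 CPM in numbers 25 to 32 and at 10530 to 13100 against 12470 to 14600 CPM in numbers 17 to 24, where the groups overlapped. HAO2 made up a large share of these sums. Without it, the other 39 members summed to 4470 to 4979 against 6900 to 7347 CPM in numbers 25 to 32 and to 4828 to 4997 against 5440 to 5723 CPM in numbers 17 to 24, with no overlap in either range. This sum without HAO2 was not planned in advance, and how often sums of other genes lie apart was not computed. Macrophage markers summed to 329 to 486 CPM in Ctns KO against 156 to 198 CPM in Ctns WT rats 25 to 32 (8 of 9 tested were called higher) and to 171 to 194 against 106 to 141 CPM in rats 17 to 24 (7 of 9). Injury markers summed to 4311 to 6335 against 628 to 718 CPM (8 of 8 higher) and to 1403 to 2035 against 669.7 to 792 CPM (5 of 8). At most 1 marker of a list was at 0 reads in any rat. The fall of the members and of the tubule markers stood in the same animals, and the part of one in the other was not tested.

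**Figure D3:**
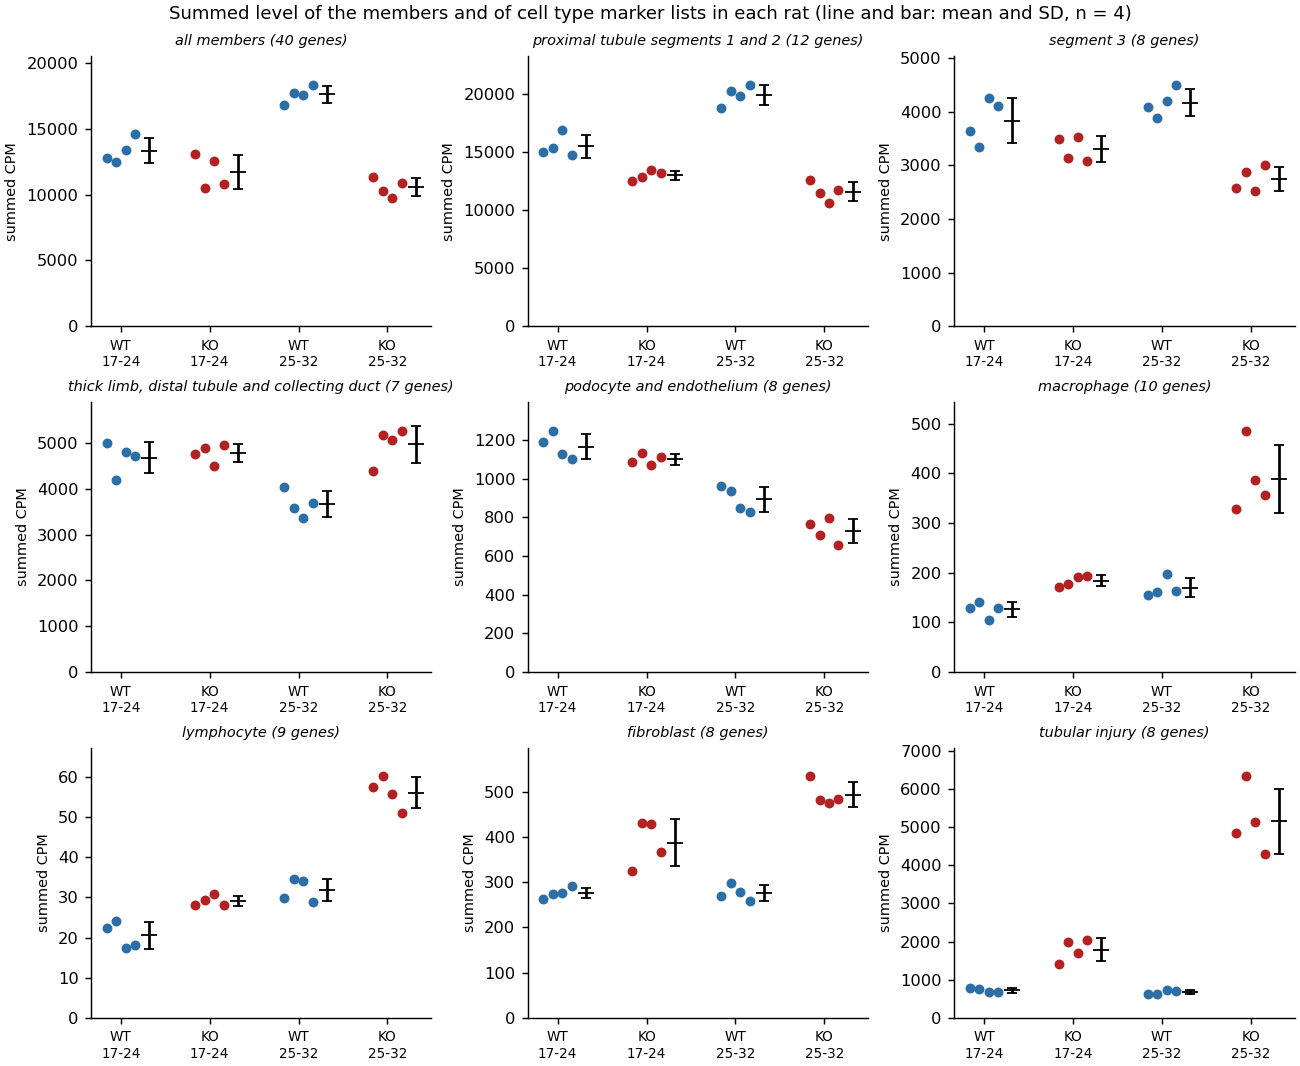
Summed CPM (y axis, from 0) of the members and of 8 marker lists in each rat, by genotype (WT blue, KO red) and number range, with mean and SD of 4 rats. In rats 25 to 32 all Ctns KO points of the members, of both proximal tubule lists and of the podocyte and endothelium list lie below all Ctns WT points. Those of the thick limb, distal tubule and collecting duct list and of the macrophage, lymphocyte, fibroblast and injury lists lie above.

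Catalase had the largest fall of the members in numbers 25 to 32. CAT was 837, 749.8, 684 and 770.2 CPM in Ctns KO rats 26, 28, 30 and 32 and 1578, 1553, 1579 and 1463 CPM in Ctns WT rats 25, 27, 29 and 31. The groups lay far apart, at 760.4 ± 63 and 1543 ± 54.9 CPM (SD, n = 4 each), and the mean fell by 50.7% (log2 fold change -1.02 ± 0.076 SE, edgeR adjusted p = 6.25e-06). In the other range CAT was 742, 831, 776 and 784 CPM in Ctns KO rats 18, 20, 22 and 24 and 1083, 1021, 772 and 825 CPM in Ctns WT rats 17, 19, 21 and 23. Here the groups overlapped, since Ctns WT rat 21 lay among the knockouts (log2 fold change -0.23 ± 0.099 SE, edgeR adjusted p = 0.204). Later values keep this order of animals.

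HAO2, an oxidase of long-chain hydroxy acids that gives off hydrogen peroxide and is abundant in rat kidney, was 6437, 5360, 5286 and 5918 CPM in Ctns KO and 9907, 10780, 10280 and 10960 CPM in Ctns WT rats 25 to 32 (log2 fold change -0.87 ± 0.084 SE, edgeR adjusted p = 3.14e-05). In rats 17 to 24 it was 8102, 5630, 7632 and 5942 against 7183, 7035, 7884 and 8881 CPM (log2 fold change -0.17 ± 0.12 SE, edgeR adjusted p = 0.487). The first pair of groups stood apart and the second overlapped. In mice HAO2 stood at 13.8, 11.6, 12.6 and 12.2 against 14, 17, 7.59 and 16.5 (scaled values), with no call and overlapping groups (adjusted p = 0.962, limma).

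IDH1 was 754, 728, 686 and 779 CPM in Ctns KO and 983, 1132, 1049 and 1151 CPM in Ctns WT rats 25 to 32 (log2 fold change -0.55 ± 0.072 SE, edgeR adjusted p = 0.000196), and 802, 704, 758 and 742 against 849, 783, 897 and 895 CPM in rats 17 to 24 (log2 fold change -0.18 ± 0.064 SE, edgeR adjusted p = 0.115). In the later numbers the mean fell by 31.7%, and in the earlier ones a single Ctns KO rat, 18, reached above the lowest Ctns WT rat. EPHX2 was 13.2, 10.2, 10.8 and 13.7 against 18.5, 15.8, 22.6 and 21.5 CPM and 15.5, 16.1, 13.4 and 13 against 15.7, 17.6, 14.8 and 14.3 CPM in the 2 ranges. Only the first was called (log2 fold change -0.71 ± 0.14 SE, edgeR adjusted p = 0.00198), and the second gave -0.099 (adjusted p = 0.637, edgeR). NUDT12, which cleaves NADH and NAD-capped RNA, was 54, 41, 49.7 and 46.8 against 76.1, 92, 82.9 and 82.3 CPM in rats 25 to 32 (log2 fold change -0.80 ± 0.093 SE, edgeR adjusted p = 9.14e-05). With 60.9, 64.8, 61.3 and 66 against 63.6, 70.6, 69 and 73 CPM in rats 17 to 24 it overlapped (log2 fold change -0.12 ± 0.056 SE, edgeR adjusted p = 0.25). Of the 9 redox enzymes, LONP2, the matrix protease, was the sixth called in rats 25 to 32 (log2 fold change -0.41 ± 0.081 SE, edgeR adjusted p = 0.00243). PIPOX, PAOX and XDH, which oxidise pipecolate, polyamines and purines, were not called there, with changes of -0.23, -0.13 and -0.20, although PAOX passed over all 16 rats (-0.16, adjusted p = 0.0245, edgeR).

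**Figure D4:**
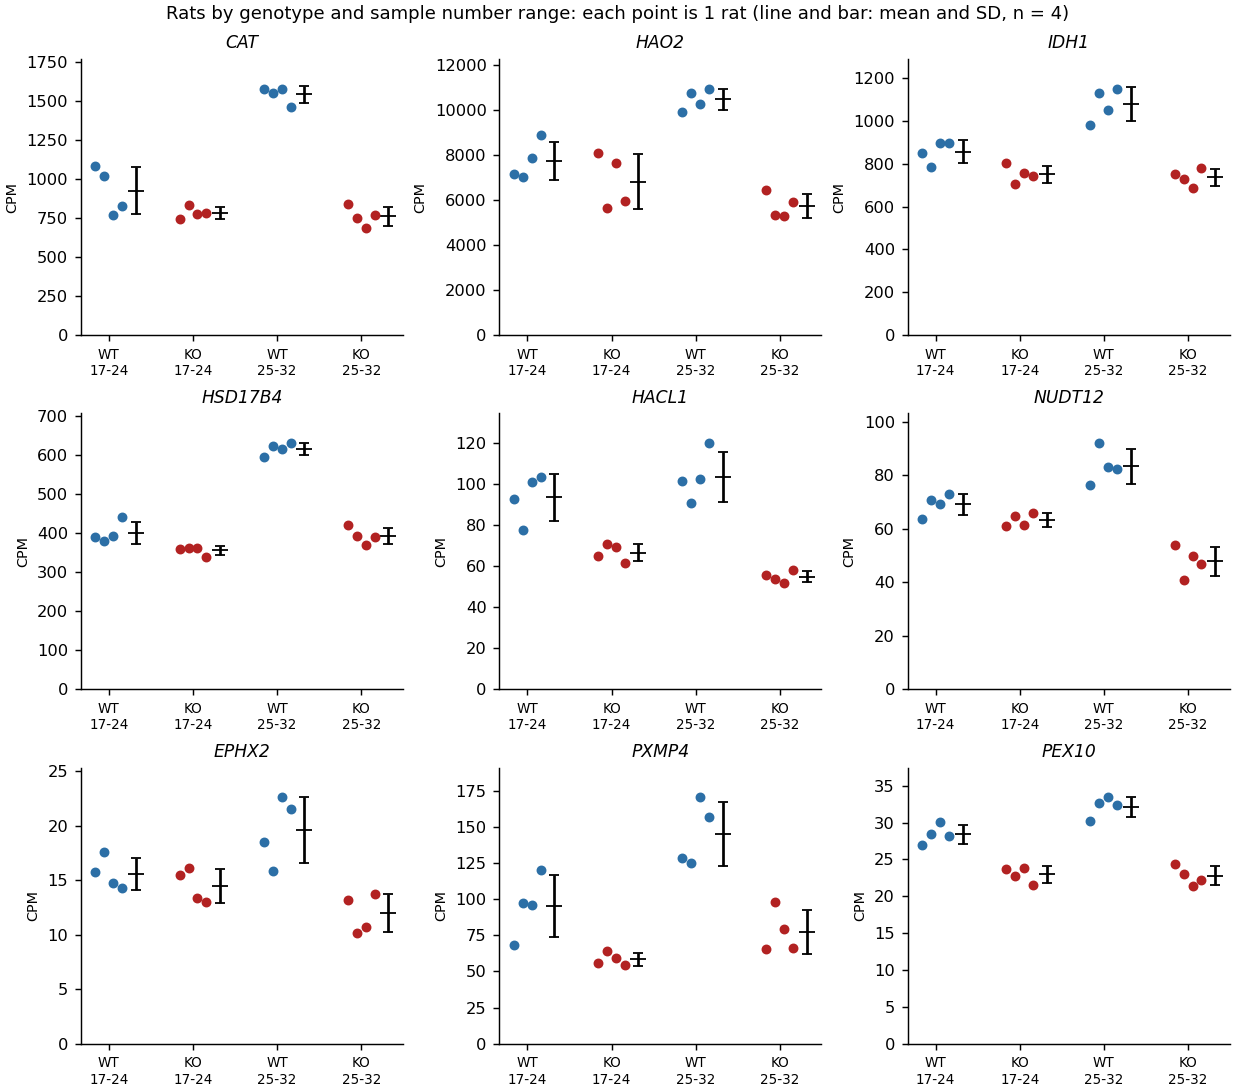
CPM (y axis, from 0) of 9 members in each rat by genotype (WT blue, KO red) and number range, with mean and SD of 4 rats. Catalase is at 684 to 837 in Ctns KO and 1463 to 1579 in Ctns WT rats 25 to 32, while in rats 17 to 24 the 2 genotypes overlap.

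Among the oxidation enzymes, HACL1, the lyase that removes 1 carbon from phytanic acid, fell in both ranges. It was 64.9, 70.6, 69.2 and 61.4 CPM in Ctns KO and 92.5, 77.8, 101 and 103 CPM in Ctns WT rats 17 to 24 (log2 fold change -0.49 ± 0.085 SE, edgeR adjusted p = 0.00481), and 55.6, 53.9, 51.9 and 58.1 against 101, 90.6, 102 and 120 CPM in rats 25 to 32 (log2 fold change -0.92 ± 0.082 SE, edgeR adjusted p = 2.06e-05). No Ctns KO rat reached the lowest Ctns WT rat in either range. HSD17B4, the bifunctional protein of branched and very long chains, was 421, 394, 369.6 and 390.4 against 595, 624, 615 and 631 CPM in rats 25 to 32 (log2 fold change -0.65 ± 0.062 SE, edgeR adjusted p = 2.9e-05). In rats 17 to 24 its 359.5, 363, 363 and 339.9 CPM lay just below 391, 380.1, 393 and 443 CPM without passing the test (log2 fold change -0.17 ± 0.06 SE, edgeR adjusted p = 0.123). ACAA1, the thiolase of straight chains, was 179, 201, 146 and 188 against 311, 262, 333 and 304 CPM (log2 fold change -0.76 ± 0.10 SE, edgeR adjusted p = 0.000222) and 183, 196, 163 and 188 against 200.3, 239, 208 and 201 CPM (log2 fold change -0.21 ± 0.072 SE, edgeR adjusted p = 0.106). The symbol is that of the human gene, whereas rodents have a pair of such thiolases, and in the mouse table its reads were not whole numbers, so its values may join or split the copies.

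AMACR was 209, 208, 182 and 231 CPM in Ctns KO and 369.8, 316, 316 and 359.7 CPM in Ctns WT rats 25 to 32 (log2 fold change -0.71 ± 0.084 SE, edgeR adjusted p = 9.75e-05) and 331, 285, 335 and 289 against 442, 317, 434 and 325 CPM in rats 17 to 24 (log2 fold change -0.28 ± 0.12 SE, edgeR adjusted p = 0.194). The later numbers stood apart and the earlier ones overlapped. PHYH was 388, 406, 375 and 419 against 454, 453, 513 and 529 CPM (log2 fold change -0.30 ± 0.07 SE, edgeR adjusted p = 0.00659), again apart, and 407, 384, 376 and 392 against 412, 397, 426 and 450.4 CPM in the earlier numbers (log2 fold change -0.11 ± 0.056 SE, edgeR adjusted p = 0.308). SCP2 was 417, 450.1, 383 and 498 against 505, 470.2, 526 and 589 CPM (log2 fold change -0.26 ± 0.091 SE, edgeR adjusted p = 0.0419) and 433, 412, 409 and 414 against 494, 453, 461 and 434 CPM (log2 fold change -0.13 ± 0.054 SE, edgeR adjusted p = 0.175). Its call lay near the threshold: Ctns KO rat 32 reached into the Ctns WT range, and leaving out any 1 of Ctns KO rats 26, 28 and 30 or Ctns WT rats 25, 29 and 31 ended it (adjusted p up to 0.101, edgeR). In all, 6 of the 9 oxidation enzymes in the rat table were called in rats 25 to 32. The acyl-CoA oxidases ACOX2 and ACOX3 and the bifunctional EHHADH were not, with changes of 0.23, -0.25 and -0.069.

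Transporters and carriers followed in rats 25 to 32. ABCD3, the main importer of branched acyl-CoA, was 223, 225, 210.2 and 231 CPM in Ctns KO and 286, 289.8, 339 and 349 CPM in Ctns WT rats (log2 fold change -0.51 ± 0.076 SE, edgeR adjusted p = 0.000429). CROT and CRAT, which load medium and short chains onto carnitine for export, changed by -0.33 (adjusted p = 0.00155, edgeR) and -0.29 (adjusted p = 0.0147, edgeR). ABCD4, which acts in lysosomal cobalamin export in spite of its family, stood at -0.05 without a call. In rats 17 to 24 no call was made for these 4 by edgeR, with 0 at an unadjusted p under 0.05, and their changes lay between -0.15 and -0.063. Of the ether lipid enzymes GNPAT, the acyltransferase of the first step, was called in rats 25 to 32 (log2 fold change -0.18 ± 0.065 SE, edgeR adjusted p = 0.0456), and it lost the call without Ctns KO rat 28, 30 or 32 or Ctns WT rat 25, 29 or 31 (adjusted p up to 0.119, edgeR). AGPS and FAR1 had wider errors, with changes of -0.25 (standard error 0.23) and -0.42 (standard error 0.19).

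The membrane channels PXMP2 and PXMP4 fell in both ranges. PXMP4 was 56, 64.3, 59.2 and 54.2 CPM in Ctns KO and 68, 97.5, 96.3 and 120.1 CPM in Ctns WT rats 17 to 24 (log2 fold change -0.70 ± 0.15 SE, edgeR adjusted p = 0.0301) and 65.4, 97.8, 79.4 and 66.5 against 128, 125, 170.4 and 157 CPM in rats 25 to 32 (log2 fold change -0.91 ± 0.14 SE, edgeR adjusted p = 0.000534). PXMP2, a pore for small solutes, was 52.7, 56, 53.6 and 50.9 against 64.6, 63.7, 65.3 and 56.9 CPM (log2 fold change -0.23 ± 0.057 SE, edgeR adjusted p = 0.0326) and 43.5, 40.9, 38.5 and 46.9 against 57.4, 50.9, 62.2 and 61.7 CPM (log2 fold change -0.45 ± 0.083 SE, edgeR adjusted p = 0.00159). Neither overlapped between genotypes in either range. For single ranges, the share of all symbols that lay apart was not computed. In rats 17 to 24 PXMP2 was called only with all rats or without Ctns WT rat 23, and PXMP4 lost its call without Ctns KO rat 18, 22 or 24 or Ctns WT rat 19 or 21 (adjusted p up to 0.111 and 0.0931, edgeR). MPV17, a related protein of the inner mitochondrial membrane, stood at -0.0017 and -0.088 without a call.

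Peroxins split. PEX10, part of the ubiquitin ligase ring, fell in both ranges, with 23.8, 22.7, 23.9 and 21.5 against 27, 28.4, 30.1 and 28.2 CPM (log2 fold change -0.30 ± 0.062 SE, edgeR adjusted p = 0.0113) and 24.4, 23, 21.4 and 22.3 against 30.2, 32.6, 33.4 and 32.4 CPM (log2 fold change -0.50 ± 0.07 SE, edgeR adjusted p = 0.000291). All 8 Ctns KO rats lay below all 8 Ctns WT rats, which was so for 3 of 40 members (HACL1, PEX7 and PEX10), beside 1.95% of the 11584 symbols tested that lay apart in this direction and 3.89% in the other. PEX5, the receptor of most matrix enzymes, was 4.14, 2.93, 3.16 and 2.75 against 6.47, 5.95, 5.95 and 5.52 CPM (log2 fold change -0.87 ± 0.15 SE, edgeR adjusted p = 0.00108) and 4.76, 4.91, 5.21 and 4.97 against 4.47, 5.99, 6.06 and 7.16 CPM (log2 fold change -0.25 ± 0.14 SE, edgeR adjusted p = 0.34). Its deposited values were not whole reads, so PEX5 may share reads with another symbol. PEX11A, which divides peroxisomes, changed by -0.54 (adjusted p = 0.005, edgeR), and the other calls in rats 25 to 32 were PEX3 (-0.24), PEX7 (-0.26) and PEX26 (-0.30), which insert membrane proteins, import another class of enzymes and anchor the export motor. The remaining 6 of 12 were not called there. Of these PEX2, PEX6, PEX14 and PEX19 had positive values, up to 0.18 for PEX14, and PEX11G and PEX16 stood at -0.074 and -0.23. With plain library totals PEX6, PEX14 and PEX19 were called higher, so whether they were called depended on the scaling, while all 3 stayed positive. The 13 peroxins of the mouse lay between -0.14 and 0.023 on log2(value + 1), without a call in limma and with 4 at an unadjusted p under 0.05, while DESeq2 called PEX5.

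The 2 ranges were compared by a test of the difference between their genotype changes. It was called for 9 of 40 members, all further below 0 in rats 25 to 32, beside 7.64% of symbols lower and 7.1% higher (edgeR, all 4 groups in one fit). The 9 were CAT (difference -0.79, adjusted p = 0.00138), HAO2 (-0.69, adjusted p = 0.00942), NUDT12 (-0.68, adjusted p = 0.00103), PEX5 (-0.62, adjusted p = 0.0471), EPHX2 (-0.61, adjusted p = 0.0277), ACAA1 (-0.55, adjusted p = 0.0132), HSD17B4 (-0.48, adjusted p = 0.00162), HACL1 (-0.43, adjusted p = 0.0324) and IDH1 (-0.37, adjusted p = 0.0187), on the log2 scale. The count held 5 redox enzymes, 3 oxidation enzymes and 1 peroxin. No member was called in the other direction by edgeR or DESeq2, with 1 at an unadjusted p under 0.05. For 33 of 40 members the change lay further below 0 in rats 25 to 32, and the median difference was -0.21 against -0.005 over all symbols. With plain library totals 6 of the 9 calls were kept, HACL1, EPHX2 and PEX5 were lost, and PEX14 was called in the other direction, with the median of all symbols at 0.14. PEX5 and EPHX2 also lost the call when single rats were left out, PEX5 in 13 of 16 cases and EPHX2 and HACL1 in 5 each. PXMP4, PXMP2 and PEX10, which fell in both ranges, showed no called difference (-0.20, -0.22 and -0.19, adjusted p = 0.557, 0.15 and 0.136, edgeR).

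**Figure D5:**
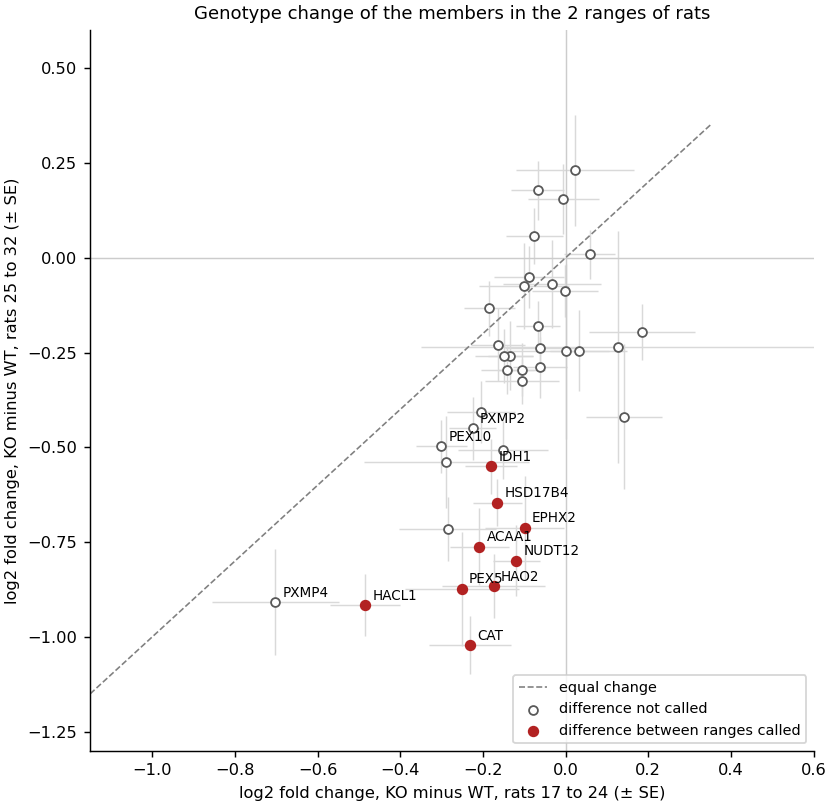
Log2 fold change between genotypes in rats 17 to 24 (x axis) against that in rats 25 to 32 (y axis) for 40 members, each with its standard error, and a dashed line where both are equal. Of 40 members 33 lie below the line, and the 9 filled points mark those whose difference between ranges was called.

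Levels in Ctns WT rats also differed between the ranges, and the same 8 animals enter the test above. Of 40 members, 14 were higher and 1 lower in Ctns WT rats 25 to 32 than in Ctns WT rats 17 to 24, beside 11.7% of symbols higher and 9.43% lower (edgeR). CAT was 1543 ± 54.9 against 925 ± 150.1 CPM (SD, n = 4 each), a log2 difference of 0.74 (adjusted p = 2.76e-05, edgeR). In Ctns KO rats the same 2 means were 760.4 ± 63 and 783 ± 36.8 CPM. So the wider gap of CAT in rats 25 to 32 stood with higher Ctns WT levels, while Ctns KO levels in the 2 ranges lay within 1 SD of each other. HSD17B4 (0.62), ACAA1 (0.51), HAO2 (0.44), IDH1 (0.33) and NUDT12 (0.27) were also higher in Ctns WT rats 25 to 32 at adjusted p up to 0.0169 (edgeR). HAO2 means were 10480 ± 479.5 and 7746 ± 843 CPM in Ctns WT and 5750 ± 538 and 6827 ± 1224 CPM in Ctns KO rats. Other members with a called difference had lower Ctns KO means in rats 25 to 32 than in rats 17 to 24. Among them were PEX5 (3.25 and 4.96 CPM), HACL1 (54.9 and 66.5), NUDT12 (47.9 and 63.25) and EPHX2 (11.95 and 14.5). Means of PEX5 in Ctns WT rats were 5.97 and 5.92 CPM. HSD17B4 went the other way in Ctns KO rats (393.7 and 356.3 CPM). A test between the ranges of Ctns KO rats was not run.

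PIPOX (1.41, adjusted p = 0.0199), XDH (0.68, adjusted p = 0.000233), PXMP4 (0.60, adjusted p = 0.0114) and CRAT (0.52, adjusted p = 0.000117) had the larger differences among the others (edgeR). PIPOX had few reads, 3 to 45 per rat, with Ctns WT means of 1.055 CPM in rats 25 to 32 and 0.379 CPM in rats 17 to 24. Its call was lost in 3 of 16 fits without 1 rat (adjusted p up to 0.08, edgeR). ACOX2, the oxidase of bile acid precursors, given here after its values were seen, went the other way, 6.32, 5.27, 4.86 and 5.60 against 11.4, 7.37, 12 and 10.6 CPM (log2 fold change -0.90 ± 0.15 SE, edgeR adjusted p = 0.000429). In Ctns KO rats it was 5.01, 7.29, 7.09 and 6.48 and 10.5, 8.81, 10.9 and 11.4 CPM, lower in the later numbers as well. Segment 1 and 2 markers were higher in Ctns WT rats 25 to 32 for 6 of 12 and lower for 1. Thick limb, distal tubule and collecting duct markers were higher for 1 and lower for 5 of 6. Podocyte and endothelial markers were lower for 5 of 8 and segment 3 markers for 2 of 8. Macrophage markers were higher for 4 of 9 and lymphocyte markers for 4 of 7 (edgeR). The part of tissue make-up in the members' differences was not tested. With plain library totals the split of the members was 9 higher and 6 lower, beside 5.94% and 20.7% of symbols. On that scale ACOX3, PHYH, NUDT12, LONP2 and PEX10 were no longer called higher. The ranges differ in ways the labels do not name, and number range and any factor that goes with it cannot be told apart.

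Mouse and rat changes were set against each other on log2(scaled value + 1), with rat reads scaled as in the mouse table. The difference was called for 0 of 39 members, beside 3.17% of 11216 shared symbols (limma), with 11 members at an unadjusted p under 0.05, and edgeR and limma-voom on reads also called 0. Leaving out single animals gave 0 to 3 calls. The animals whose omission gave any were Ctns KO mouse 8 (ACOX2), Ctns WT mouse 2 (ACOX2, EHHADH and PEX6), Ctns WT mouse 7 (EPHX2 and PEX19) and Ctns KO rat 20 or 22 (PEX19), each with the rat change above that of the mouse. On this scale CAT changed by -0.52 in mice and -0.56 in rats, a difference of -0.043 with a standard error of 0.21. IDH1 changed by -0.35 and -0.31 (difference 0.032, standard error 0.11), and SCP2 by -0.40 and -0.15 (difference 0.25, standard error 0.099). HAO2 had the largest negative difference, -0.42 with a standard error of 0.23 and an adjusted p of 0.339 (limma). The rat values pool both number ranges. The changes of CAT, IDH1 and HAO2 were called different between those ranges, so their pooled values describe neither range alone. A difference that misses the threshold does not show equal changes. In 33 of 39 members the change lay below 0 in both species. For each species apart, 42.3% of all symbols tested lay below 0 in mice and 53.5% in rats. The share of shared symbols below 0 in both was not computed.

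Other peroxisomal genes, 42 symbols listed beside the members, gave 1 lower and 1 higher of 41 in mice. The hydrolase-like ISOC1 was 1.74, 1.66, 1.69 and 1.67 in Ctns KO and 1.94, 2.02, 2.04 and 2.15 in Ctns WT mice (scaled values, log2 fold change -0.17 ± 0.024 SE, limma adjusted p = 0.011), and LACC1, better known from macrophages, was 0.153, 0.134, 0.129 and 0.137 against 0.0924, 0.0762, 0.0861 and 0.0627 (log2 fold change 0.077 ± 0.011 SE, limma adjusted p = 0.0119). In rats 25 to 32, 19 of 34 fell and 4 rose, and in rats 17 to 24, 2 fell and 1 rose. Only HAO1, MPV17L and ACBD4 passed in both ranges. HAO1, the glycolate oxidase known from liver, rose from 1.21, 0.884, 0.584 and 0.753 to 5.21, 6.78, 6.48 and 8.12 CPM in rats 17 to 24 (log2 fold change 2.98 ± 0.21 SE, edgeR adjusted p = 1.23e-05) and from 4.31, 8.76, 9.72 and 8.41 to 29.3, 22, 25.6 and 22.2 CPM in rats 25 to 32 (log2 fold change 1.67 ± 0.21 SE, edgeR adjusted p = 0.00015). Its relative HAO2 fell in rats 25 to 32 and was not called in rats 17 to 24. Between Ctns WT rats, HAO1 and HAO2 were both called higher in numbers 25 to 32 (edgeR). MPV17L, related to PXMP2, fell by 0.40 and 1.14 on the log2 scale (adjusted p = 0.0387 and 5.52e-05, edgeR). The smaller change of MPV17L rests on few rats, since its call in rats 17 to 24 was lost without Ctns KO rat 18, 20 or 24, without Ctns WT rat 17, 21 or 23 and with plain library totals. ACBD4, which ties peroxisomes to the endoplasmic reticulum, changed by -0.37 and -0.64 (adjusted p = 0.0138 and 0.000167, edgeR).

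Of 12 regulators of peroxisome number and fatty acid oxidation, 7 fell in rats 25 to 32, no call was made by edgeR in rats 17 to 24 (4 lower at an unadjusted p under 0.05), and none of 13 was called in mice by limma (2 lower at an unadjusted p under 0.05). PPARA, HNF4A and RXRA were picked after their values were seen. PPARA was 17.2, 6.51, 13.5 and 6.27 against 33, 47.4, 37.8 and 33.4 CPM in rats 25 to 32 (log2 fold change -1.79 ± 0.30 SE, edgeR adjusted p = 0.000839) and 16.4, 20.8, 25.7 and 25.1 against 21.3, 35.1, 28.2 and 29.1 CPM in rats 17 to 24 (log2 fold change -0.37 ± 0.18 SE, edgeR adjusted p = 0.285). The difference between the ranges was called (-1.42, adjusted p = 0.0202, edgeR), though not without Ctns WT rat 27. HNF4A, a proximal tubule regulator, changed by -1.10 in rats 25 to 32 and -0.28 in rats 17 to 24 (adjusted p = 0.000122 and 0.0842, edgeR), and RXRA by -0.75 and -0.21 (adjusted p = 0.00377 and 0.0577, edgeR). In mice the changes on log2(value + 1) were -0.065, -0.28 and -0.14 for PPARA, HNF4A and RXRA.

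PPARA targets outside the peroxisome were mixed, with 7 of 16 lower and 2 higher in rats 25 to 32 and 1 lower and 1 higher in rats 17 to 24. ANGPTL4, an inhibitor of lipoprotein lipase, rose in both ranges (1.06 and 2.39, adjusted p = 0.00598 and 0.000469, edgeR), and the fatty acid hydroxylase listed as CYP4A11 fell in both (-0.34 and -0.37, adjusted p = 0.0145 and 0.00302, edgeR). In rats 17 to 24 CYP4A11 was not called without Ctns KO rat 24. The rat has several genes of that family, and the human symbol does not say which. None of 19 targets was called in mice by limma, with 0 at an unadjusted p under 0.05. Of 10 receptors and regulators of selective peroxisome removal, 4 fell and 1 rose in rats 25 to 32, and 2 fell in rats 17 to 24. TEX264, a receptor for reticulum removal, was the one called in both (-0.28 and -0.46, adjusted p = 0.0425 and 0.00498, edgeR). It lost the call in rats 17 to 24 without any 1 of Ctns KO rats 18, 20, 22 and 24 or without Ctns WT rat 21.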

How the data were processed

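RNA of 8 mouse and 16 rat kidneys was sequenced with 1 library per animal (stranded poly(A) libraries, paired reads). Notes of the submitters name bcl2fastq 2.20, STAR 2.7.3, DESeq2 1.24.0, R 3.6.1 and the builds mm10 and rn5. The read counter and annotation are not given in the sources used here. Both tables use upper-case, human-style symbols, so related rodent genes can share 1 symbol.

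The mouse values deposited by the authors are a signal: each gene's reads with 0.5 added, scaled so that the 75th percentile gene of a library is near 1. Whole reads were recovered from 98.99% of them (within 0.01) and used for count tests as an alternative. The rat values deposited by the authors are estimated counts, reads with a small constant added, of which 97.72% were whole within 0.01, and they were rounded before testing.

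Mouse values were tested as log2(value + 1) with limma 3.58.1 over all symbols, because they are not counts, and rat counts with edgeR 4.0.16 (quasi-likelihood, TMM, filterByExpr) in R 4.3.3, over all rats, in each number range, and in a fit of 4 groups for the range contrasts. The species contrast used limma on shared symbols. P-values were adjusted by Benjamini-Hochberg over all symbols tested, with a threshold of 0.05. Alternatives used DESeq2 1.42.0, limma-voom, sva 3.50.0, other filters, a pseudocount of 0.1, scaling by library totals and leaving out each animal. The fits were tested on simulated data with known changes.

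Values in every animal were given by rule for CAT and for members called in mice, in both rat ranges in the same direction, for the difference between ranges or between species, at most 12 of each by size of change. The members and lists were chosen with earlier results of these data known. Groups came from the sample labels. P-values measure the spread between animals as sequenced. Replicate numbers are the animals' own sample numbers and say nothing about pairs.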

Additional observations from a re-analysis of the deposited data

Results flagged for a closer look

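Of 120 groups of 4 or 8 animals examined among the named members, 4 held an animal far from the rest of its group, where chance gives about 1 in 20. HSD17B4 was 340 CPM in Ctns KO rat 24, and the nearest Ctns KO rat of numbers 17 to 24 was at 359 CPM. EPHX2 was 5.03 (scaled value) in Ctns WT mouse 7, below the next at 5.93. NUDT12 was 1.14 in Ctns WT mouse 2, above the next at 0.73. PXMP2 was 0.983 in Ctns KO mouse 6, below the next at 1.16.

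The change between genotypes differed between rats 25 to 32 and rats 17 to 24 for 9 members (edgeR). The log2 differences were -0.79 for CAT, -0.69 for HAO2, -0.68 for NUDT12, -0.62 for PEX5, -0.61 for EPHX2, -0.55 for ACAA1, -0.48 for HSD17B4, -0.43 for HACL1 and -0.37 for IDH1. Markers of proximal tubule segments 1 and 2 differed between ranges in the same direction for 7 of 12, and their part in these values was not tested.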

How the results depend on the processing

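In mice the count of 6 members was 10 with DESeq2 and 3 with 1 surrogate variable, and it ran from 1 to 5 with each mouse left out. In rats 17 to 24 the count of 4 ran from 2 to 4 with each rat left out. The species difference, called for 0 members, ran from 0 to 3 with each animal left out. The uncalled change of HAO2 in mice ranged from -0.3102 to 0.0465 (log2) with each mouse left out and turned above 0 without Ctns WT mouse 2 (0.0465) or 7 (0.0325). Counts in all rats (23), in rats 25 to 32 (24), between ranges (9) and between Ctns WT ranges (15) stayed within 1.5 times under every alternative run, while library totals, chosen after seeing the data, changed their split. No paired analysis was run, because the sources used here do not say which animals shared a litter.

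With 4 animals a group, small changes of single members are not resolved. The meaning of the rat number ranges, the age of the sequenced mice and the age, sex and treatment of the sequenced rats are not given in the sources used here, and the part of tissue make-up in the comparisons was not tested.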

Other observations

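Lists of other kidney cells not described above moved as well. Of fibroblast markers, 4 of 8 were called higher in Ctns KO mice (limma), and 2 of 7 in rats 17 to 24 and 6 of 7 in rats 25 to 32 (edgeR). Lymphocyte markers gave no call of 9 in mice (limma, 0 at an unadjusted p under 0.05), 5 of 6 higher in rats 17 to 24 and 6 of 6 higher in rats 25 to 32. Podocyte and endothelial markers gave no call of 9 in mice (1 lower at an unadjusted p under 0.05), 1 of 8 lower in rats 17 to 24 and 3 of 8 lower in rats 25 to 32. Thick limb, distal tubule and collecting duct markers gave 1 of 12 higher in mice, no call of 6 in rats 17 to 24 (edgeR, 1 higher at an unadjusted p under 0.05), and 3 higher and 1 lower of 6 in rats 25 to 32. Segment 3 markers gave 1 of 8 lower in rats 17 to 24 and 6 of 8 lower in rats 25 to 32.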
